A study of Mus musculus with 2 samples.

Results

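The AP-2 adaptor complex and the protein kinases of the Numb-associated family were described at the RNA level in whole gastrocnemius muscle of C57BL/6 mice that were 8 weeks old. The genes were the 4 kinase genes Aak1, Bmp2k, Gak and Stk16 and the 5 AP-2 subunit genes Ap2a1, Ap2a2, Ap2b1, Ap2m1 and Ap2s1, and all 9 were found among the 34745 genes of the deposited count table. They were selected on the counts of Aak1 in these libraries, which differed, so the Aak1 values below are a description of that choice. The deletion genotype was CIPC-scko, here scKO, in 1 library, and its control was CIPC-flox/flox, here flox/flox, also in 1 library. By the series title scKO stands for a deletion of Cipc, which encodes the CLOCK-interacting pacemaker protein, in satellite cells, from which muscle fibres regenerate. The labels give the scKO genotype by that name alone and list no further alleles. The Cre line that drives the deletion, the number of animals per library and any pooling are not given in the labels. The title also speaks of mdx mice, which lack dystrophin, whereas the labels of neither library do.

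Clathrin-mediated endocytosis takes membrane proteins into the cell in coated vesicles. AP-2 is the adaptor that joins clathrin to the plasma membrane and to the cytoplasmic tails of the cargo. Each AP-2 complex holds an α chain from Ap2a1 or Ap2a2, a β chain from Ap2b1, a μ chain from Ap2m1 and a σ chain from Ap2s1. AAK1, the adaptor-associated kinase, phosphorylates a threonine of the μ chain, which strengthens the grip of AP-2 on tyrosine-based cargo signals. GAK, the cyclin G-associated kinase, can phosphorylate the same chain and works with the chaperone HSC70 to strip clathrin from vesicles. BMP2K is the closest relative of AAK1, and STK16 is a more distant member of the family found at the Golgi apparatus.

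The site that links AAK1 to the adaptor is shown first, as it is the threonine of the μ chain that AAK1 phosphorylates. It is the codon of residue 156 of the 435 residues of the μ chain, in transcript Ap2m1-201 of GENCODE M21 on chromosome 16, and the codon in capitals, coding bases 466 to 468, encodes threonine.
Ap2m1 coding sequence: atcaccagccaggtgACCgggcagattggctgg
The start of Aak1 is shown because its RNA differed while that of the gene next to it on the other strand did not differ beyond counting error. The window is a RefSeq promoter entry of GRCm38.p6, chr6:86849255-86849554 on the plus strand, from 250 bases before the start to 50 bases from it on. The capitals mark the 76 bases, 86849441 to 86849516, between the GENCODE M21 starts of Aak1 and of the long noncoding RNA gene 2610306M01Rik.
Aak1 promoter: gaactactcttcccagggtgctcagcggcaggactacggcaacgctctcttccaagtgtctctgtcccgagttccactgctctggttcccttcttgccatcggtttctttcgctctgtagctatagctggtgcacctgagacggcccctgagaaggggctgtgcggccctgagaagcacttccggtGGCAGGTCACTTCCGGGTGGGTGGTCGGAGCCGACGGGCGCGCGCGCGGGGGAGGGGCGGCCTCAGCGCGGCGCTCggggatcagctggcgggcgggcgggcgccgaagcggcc
All 9 genes matched a RefSeq promoter, Aak1 with a pair of overlapping entries, giving 10 windows of 300 bases. The E-box CACGTG, the element bound by CLOCK and BMAL1, reads the same on both strands and was present in 7.15% of all 32851 RefSeq promoter windows of that length. Among the 10 windows it was found in that of Ap2m1, which is shown with the element in capitals, 174 bases before the start, in chr16:20535230-20535529 on the plus strand of GRCm38.p6.
Ap2m1 promoter: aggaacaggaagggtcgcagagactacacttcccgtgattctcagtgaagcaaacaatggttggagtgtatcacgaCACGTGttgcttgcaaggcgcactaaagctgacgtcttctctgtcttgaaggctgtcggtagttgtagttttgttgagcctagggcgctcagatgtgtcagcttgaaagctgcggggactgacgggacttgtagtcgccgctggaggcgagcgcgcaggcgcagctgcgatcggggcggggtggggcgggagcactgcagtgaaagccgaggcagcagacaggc
The related element CACGTT, searched on both strands, was in 4.68% of all windows and in none of the 10. A match is a description of the letters and does not show binding.

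The libraries held 13842100 counts over 16155 genes in scKO and 14727219 counts over 16375 genes in flox/flox. Levels in CPM (counts per 1000000 scaled counts of the library) use TMM library sizes, and 3 counts, the limit that a count of 0 allows, correspond to 0.214 CPM in scKO and 0.206 CPM in flox/flox. With 1 library per genotype no difference below has a replicate check, and each compares these libraries, not the genotypes. Brackets give 95% intervals, which cover counting error only. Cipc itself had 111 counts in scKO, against 658 in flox/flox, 5.72-fold lower (log2 ratio −2.51, −2.82 to −2.22). All 12 myofibre markers were abundant, with a summed level of 134524 CPM in scKO and 146039 CPM in flox/flox. The 7 satellite cell markers had a median log2 ratio of 0.18, from Pax7 at −0.76 (−1.38 to −0.19), with 39 counts in scKO and 69 in flox/flox, to Myf5 at 0.60 (−0.19 to 1.45), with 34 in scKO and 23 in flox/flox.

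Aak1 (ENSMUSG00000057230, chromosome 6, 86849517 to 87003223, plus strand, GRCm38) had 112 counts in the scKO library and 596 in the flox/flox library. On the scaled level these were 7.98 CPM in scKO and 41.0 CPM in flox/flox. Aak1 was thus 5.14-fold lower in scKO, with an interval of 4.19-fold to 6.34-fold lower (log2 ratio −2.36, −2.67 to −2.07). Among the 12662 genes with a summed count of at least 20, here the tested genes, it stood 34th from the lowest ratio. Within the 8243 genes that reached 100 counts in either library it stood 11th. In whole muscle, fewer cells of a type that expresses a gene and less RNA of it per cell cannot be told apart.

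The other 3 kinase genes lay close to equality. Bmp2k (ENSMUSG00000034663, chromosome 5, 96997689 to 97091867, plus strand) had 147 counts in scKO and 132 in flox/flox, a log2 ratio of 0.21 (−0.14 to 0.56). Gak (ENSMUSG00000062234, chromosome 5, 108569411 to 108629755, minus strand) had 179 counts in scKO and 196 in flox/flox, a log2 ratio of −0.08 (−0.38 to 0.22). Stk16 (ENSMUSG00000026201, chromosome 1, 75210838 to 75215606, plus strand) had 140 counts in scKO and 131 in flox/flox, a log2 ratio of 0.15 (−0.21 to 0.50). The intervals of all 3 include 0, and the widest bounds leave room for log2 ratios of 0.56 (Bmp2k) and −0.38 (Gak). Summed without Aak1, the kinases had 466 counts in scKO and 459 in flox/flox (log2 ratio 0.07, −0.12 to 0.26). With Aak1 the sum was 578 counts in scKO, against 1055 in flox/flox, 1.76-fold lower. Aak1 took 19.4% of the kinase counts in scKO (16.2% to 22.8%, exact Clopper-Pearson interval) and 56.5% in flox/flox (53.4% to 59.5%).

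**Figure D1:**
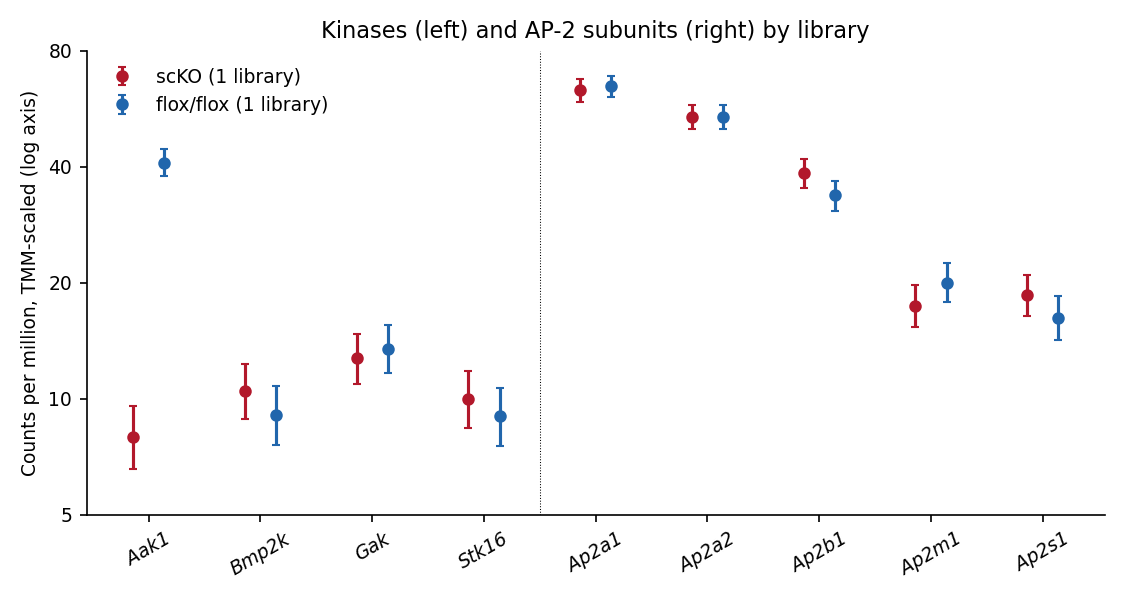
Scaled level of each gene in CPM on a log axis, in the scKO library (red, left of each pair) and the flox/flox library (blue); bars are 95% Poisson counting intervals. Aak1 stands at 7.98 CPM in scKO and 41.0 CPM in flox/flox, while the pairs of the other 8 genes lie close together.

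The genes of the AP-2 subunits differed little between the libraries. For the α chains, which bind membrane lipid and accessory proteins, Ap2a1 (ENSMUSG00000060279, chromosome 7, 44900373 to 44929496, minus strand) had 885 counts in scKO and 940 in flox/flox, a log2 ratio of −0.04 (−0.17 to 0.10). Ap2a2 (ENSMUSG00000002957, chromosome 7, 141562173 to 141633011, plus strand) had 754 counts in scKO and 782 in flox/flox, a log2 ratio of −0.0015 (−0.15 to 0.14). Of these alternative chains, Ap2a1 took 54.0% of their counts in scKO (51.5% to 56.4%) and 54.6% in flox/flox (52.2% to 57.0%). These shares of counts take no account of gene length, and shares per length are given below.

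The β chain, which binds clathrin and cargo adaptors, was the member whose interval lay above equality. Its gene Ap2b1 (ENSMUSG00000035152, chromosome 11, 83299024 to 83405035, plus strand) had 540 counts in scKO and 490 in flox/flox, 1.14-fold higher (log2 ratio 0.19, 0.01 to 0.37). Ap2m1 (ENSMUSG00000022841, chromosome 16, 20535478 to 20544909, plus strand), the gene of the phosphorylated μ chain, had 245 counts in scKO and 291 in flox/flox, a log2 ratio of −0.20 (−0.45 to 0.05). Ap2s1 (ENSMUSG00000008036, chromosome 7, 16738410 to 16749294, plus strand), the gene of the small σ chain, had 261 counts in scKO and 236 in flox/flox, a log2 ratio of 0.20 (−0.06 to 0.46). Over the 5 subunits the summed counts were 2685 in scKO and 2739 in flox/flox (log2 ratio 0.02, −0.05 to 0.10), and the median log2 ratio was −0.0015, beside 0.0021 over all tested genes.

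All 9 genes passed the minimum of 20 summed counts. A gene was called where its ratio was at least 2-fold and its interval excluded equality. Aak1 was called lower and no member was called higher, against a background of 1.91% of the 12662 tested genes called lower and 1.49% called higher. By interval alone, 1 member (Ap2b1) lay above equality and 1 (Aak1) below it, beside 12.8% and 12.3% of all tested genes. Both counts, 1 of 9 above equality and 1 of 9 below, are near that background and are no result about these genes. The member called lower is Aak1, on which the set was chosen, so its call is no excess over the background either. As depth sets what can be called, the 2147 genes with summed counts of 500 to 1000, the range that holds Aak1, were also counted. Of these, 17 (0.792%) were called lower and 3 higher, and the middle 50% of their log2 ratios ran from −0.11 to 0.14. Hist2h2aa1 (log2 ratio −10.2), Tmem127 (−3.29), Tmem245 (−3.05) and Cipc (−2.51) in that range had lower ratios than Aak1. The ratios of the 8 members other than Aak1 ran from −0.20 to 0.21, near the middle 50% of all tested genes (−0.18 to 0.17).

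**Figure D2:**
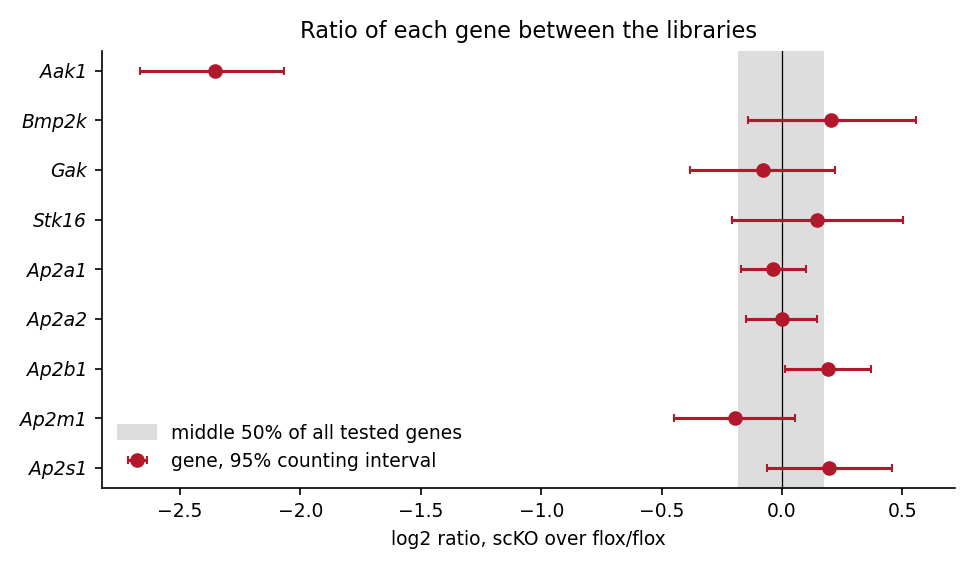
Log2 ratios (scKO over flox/flox) for each gene, with its 95% counting interval (bars) and the range of the middle 50% of all tested genes (grey). Aak1 lies at −2.36, and the other 8 genes lie between −0.20 and 0.21.

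**Figure D3:**
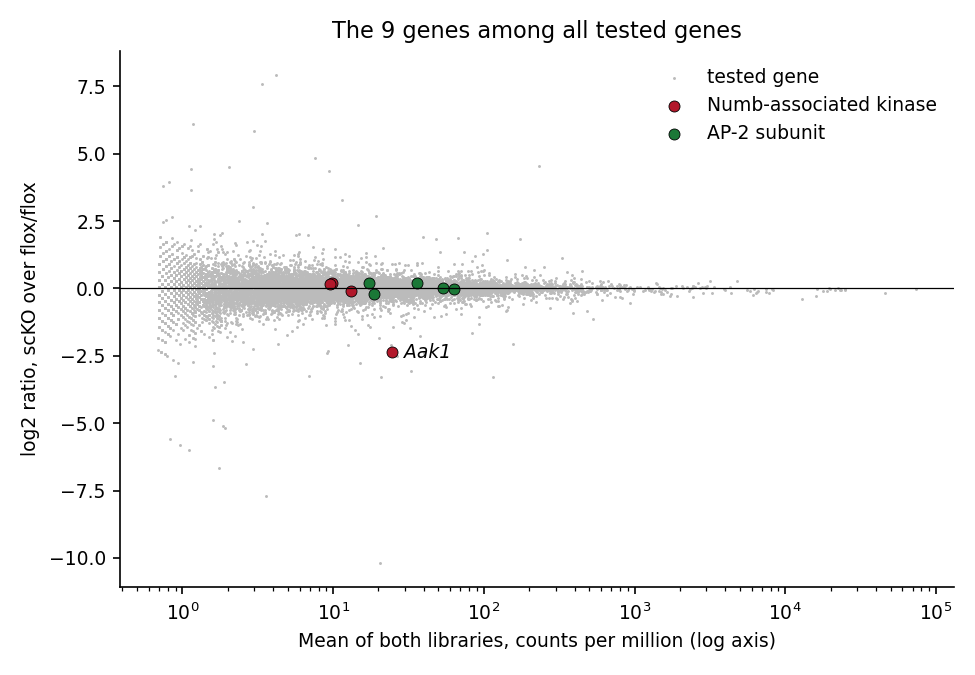
Log2 ratios (scKO over flox/flox) against the mean level in CPM (log axis) for the 12662 tested genes (grey), the 4 kinase genes (red) and the 5 AP-2 subunit genes (green). Aak1 stands below most genes at its level, though some lie lower, and the other 8 lie inside the cloud.

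Levels between genes were compared per length, with the deposited FPKM values (fragment counts scaled by gene length and by the library total). In scKO the order ran from Ap2a1 (17.5 FPKM) through Ap2s1 (10.1 FPKM), Ap2a2 (8.83 FPKM), Ap2b1 (3.84 FPKM) and Ap2m1 (2.33 FPKM) to the kinases. Among these, Gak stood at 1.36 FPKM, Bmp2k at 1.23 FPKM, Stk16 at 0.916 FPKM and Aak1 lowest at 0.267 FPKM in scKO. In flox/flox the subunits stood at 17.5 FPKM for Ap2a1, 8.61 FPKM for Ap2a2, 8.55 FPKM for Ap2s1, 3.27 FPKM for Ap2b1 and 2.60 FPKM for Ap2m1. There the kinases followed at 1.40 FPKM for Gak, 1.34 FPKM for Aak1, 1.04 FPKM for Bmp2k and 0.805 FPKM for Stk16. Aak1 was thus last of the 9 genes in scKO and between Gak and Bmp2k in flox/flox. Neighbours whose counting intervals overlapped were Ap2s1 with Ap2a2 and Bmp2k with both Gak and Stk16 in scKO, and Ap2a2 with Ap2s1, Gak with both Aak1 and Bmp2k, and Bmp2k with Stk16 in flox/flox.

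The order of the genes depends on the gene length used, both within the kinases and at the top. The length implied by FPKM and counts matched, to within 1 base, the summed distinct exons of GENCODE M21 for 7 of the 9 genes, which counts overlapping exons of different transcripts more than once. It was 30293 bases for Aak1, whose merged exons span 21453 bases, and 11044 bases for Stk16, whose merged exons span 4518 bases. For Ap2a1 the implied length of 3656 bases was shorter than the 7518 bases of M21, and for Ap2m1 it was 7599 bases against 7512. The reason for these differences in length was not tested. The shorter length raises the FPKM of Ap2a1 beside those of the 7 matching genes. Over merged exons Ap2a1 was still first, at 14.9 RPKM in scKO and 14.8 RPKM in flox/flox. Ap2s1 followed there at 12.8 RPKM in scKO and 10.9 RPKM in flox/flox. Over merged exons, Gak stood at 2.01 RPKM in scKO and 2.07 RPKM in flox/flox, Stk16 at 2.24 RPKM in scKO and 1.97 RPKM in flox/flox, and Aak1 at 0.377 RPKM in scKO and 1.89 RPKM in flox/flox. Bmp2k, at 1.25 RPKM in scKO and 1.06 RPKM in flox/flox, was then the lowest kinase of flox/flox in place of Stk16. Over the transcript with the longest coding sequence, Ap2s1 passed Ap2a1, at 22.6 RPKM against 18.5 RPKM in scKO and 19.2 RPKM against 18.5 RPKM in flox/flox. Aak1 was the lowest of the 9 genes in scKO under all 3 lengths, and its share of the summed kinase level per length was 7.08%, 6.42% and 5.05% in scKO, against 29.2%, 27.0% and 22.3% in flox/flox. In the same order of lengths, Ap2a1 took 66.4%, 60.7% and 61.3% of the summed α level in scKO. In flox/flox it took 67.0%, 61.3% and 61.8%.

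**Figure D4:**
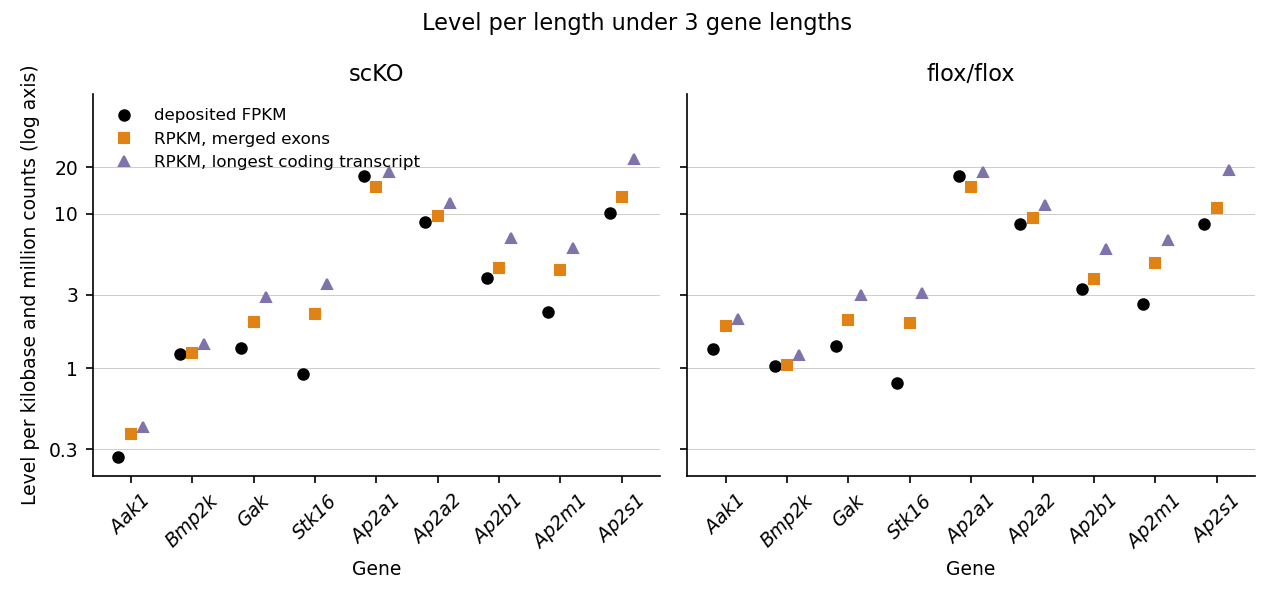
Level scaled by gene length and library total, on a log axis, for each gene in scKO (left) and flox/flox (right), with the deposited FPKM (circles), merged exons (squares) and the longest coding transcript (triangles). Aak1 is the lowest gene in scKO under all 3 lengths, while the order of Gak, Stk16 and Bmp2k shifts with the length.

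The gene models bear on what these counts hold. Aak1 has 9 annotated transcripts in GENCODE M21. The longest coding one, Aak1-202, is 19341 bases long with 15928 bases after its last coding base, against 7203 and 4569 bases for Aak1-201. The counts cover the whole gene, and which transcript the difference belongs to was not tested. No other annotated gene shares exonic bases with Aak1; of 4 annotated genes inside its introns on the same strand, 3 had 0 counts in both libraries and Gm44091 had 0 in scKO and 1 in flox/flox. Stk16 shares 1379 exonic bases, 30.5% of its own, with the α-tubulin gene Tuba4a on the opposite strand, which had 6093 counts in scKO and 4085 in flox/flox. Ap2a1 shares 720 bases (16.7%) with Fuz on the opposite strand, at 278 counts in scKO and 208 in flox/flox, and Bmp2k shares 1185 of its 8480 exonic bases with Paqr3, also on the opposite strand, at 25 counts in scKO and 29 in flox/flox. The strand setting of the counting is not given in the sources used here, so reads in these stretches cannot be assigned, and the counts of Stk16, Ap2a1 and Bmp2k are uncertain to that extent.

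The genes around Aak1 did not share its ratio. The divergent long noncoding RNA 2610306M01Rik, which starts 76 bases before Aak1 in the other direction (chromosome 6, 86848399 to 86849440, minus strand), had 55 counts in scKO and 56 in flox/flox (log2 ratio 0.02, −0.54 to 0.59). Downstream on the same strand, Nfu1, an iron-sulfur cluster scaffold gene 6012 bases beyond Aak1, had 500 counts in scKO and 519 in flox/flox (log2 ratio −0.0027, −0.18 to 0.18). Gfpt1, the entry enzyme of the hexosamine pathway, had 626 counts in scKO and 667 in flox/flox (log2 ratio −0.04, −0.20 to 0.12). Upstream, the annexin gene Anxa4 had 181 counts in scKO and 201 in flox/flox (log2 ratio −0.10, −0.40 to 0.20). All 4 intervals include 0.

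The genes that were most like Aak1 in ratio, over the single pair of libraries, were Usf3 (log2 ratio −2.39), Skil (−2.32), Lrrc61 (−2.41), Cipc (−2.51) and the caveolin gene Cav1 (−2.11). These are the 5 nearest named genes that reached 100 counts in either library. Usf3 had 181 counts in scKO and 982 in flox/flox. Skil, which encodes a repressor of SMAD signalling, had 43 counts in scKO and 224 in flox/flox, and Lrrc61 had 40 in scKO and 222 in flox/flox. Cav1, whose protein coats caveolae, an endocytic structure without clathrin, had 127 counts in scKO and 570 in flox/flox. A shared ratio between a pair of libraries is a single number per gene.

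The remaining genes of clathrin-mediated endocytosis and the other adaptor complexes were described from 6 lists with 90 genes. Of the 77 tested, none was called 2-fold higher or lower in scKO. Intervals lay above 0 for 11 (14.3%, beside 12.8% of all tested genes), below 0 for 6 (7.79%, beside 12.3%) and included 0 for 60. Their log2 ratios ran from −0.55 to 0.37 with a median of 0.01, so that none approached the ratio of Aak1.

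Of the coat and uncoating genes, 3 of 8 tested had intervals above 0 and 1 below, beside 12.8% and 12.3% of all tested genes. Abundant genes have narrow intervals, here and in the lists that follow. The median log2 ratio of the list was 0.12, beside 0.0021 over all tested genes. The clathrin heavy chain gene Cltc had 2424 counts in scKO and 2189 in flox/flox (log2 ratio 0.20, 0.11 to 0.28), and Hspa8, the gene of HSC70, had 10364 in scKO and 9490 in flox/flox (0.18, 0.14 to 0.22). The lipid phosphatase genes Synj2 and Inpp5b stood at 0.37 (0.20 to 0.54) and 0.20 (−0.07 to 0.47). The light chain gene Cltb lay slightly below equality at −0.12 (−0.24 to −0.0026), and Clta at −0.09 (−0.30 to 0.11), an interval that includes 0. Dnajc6, which encodes auxilin, the neuronal relative of GAK, had 3 counts in scKO and 0 in flox/flox, at or under the limit of 3 counts.

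Among 22 tested genes of AP-2 assembly and coat assembly, 3 intervals lay above 0 and 3 below, with a median of −0.04. The shares over all tested genes were 12.8% above and 12.3% below. The scaffold gene Eps15 (0.28, 0.15 to 0.42) was higher, as was Pacsin2 (0.28, 0.13 to 0.43). The scaffold gene Itsn1 (−0.29, −0.42 to −0.17) was lower. Hip1r, which links coats to actin, stood at −0.28 (−0.64 to 0.07). Aagab and Ccdc32, which encode chaperones of AP-2 assembly, stood at 0.13 (−0.15 to 0.41) and 0.05 (−0.50 to 0.61). The list of 8 cargo adaptors had no interval that excluded 0 and a median of 0.0038. Numb, after which the kinase family is named, had 170 counts in scKO and 174 in flox/flox (0.02, −0.30 to 0.33), and Numbl stood at −0.17 (−0.72 to 0.38), Arrb1 at 0.24 (−0.06 to 0.55) and Ston2 at 0.12 (−0.10 to 0.35).

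The 8 tested scission genes had a median of −0.08, and 1 interval lay below 0, that of Bin1, the amphiphysin of muscle (6879 counts in scKO and 7638 in flox/flox, −0.10, −0.15 to −0.05). The dynamin gene Dnm3 had the lowest ratio at −0.55 (−1.12 to 0.0026) on 46 counts in scKO and 70 in flox/flox, and the ubiquitous Dnm2 stood at 0.01 (−0.17 to 0.19). Snx9 and Snx18, which bend membrane at the vesicle neck, stood at −0.16 (−0.40 to 0.07) and 0.14 (−0.15 to 0.43). Of 12 tested cargo receptors, 4 intervals lay above 0 and 1 below, with a median of 0.04. For both lists, the shares over all tested genes were 12.8% above 0 and 12.3% below. The transferrin receptor gene Tfrc, the classical cargo of AP-2, had 3034 counts in scKO and 3629 in flox/flox (−0.21, −0.28 to −0.14), while Lrp6 stood at 0.27 (0.14 to 0.40) and Egfr at −0.16 (−0.48 to 0.16).

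The AP-1, AP-3, AP-4 and AP-5 complexes, which sort cargo at the Golgi apparatus and endosomes, served as the nearest relatives of AP-2. Of 23 genes 19 were tested, with a median log2 ratio of 0.09. There 1 interval lay above 0 and none below, beside 12.8% and 12.3% of all tested genes. Ap1b1, which encodes the β chain of AP-1 and is the closest relative of Ap2b1, had 634 counts in scKO and 565 in flox/flox (0.22, 0.05 to 0.38). The largest ratios were those of Ap5z1 (−0.38, −0.83 to 0.06), Ap3m2 (−0.34, −0.97 to 0.27), Ap1g2 (0.32, −0.14 to 0.80) and Ap5m1 (0.29, −0.04 to 0.64), all with intervals that include 0.

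**Figure D5:**
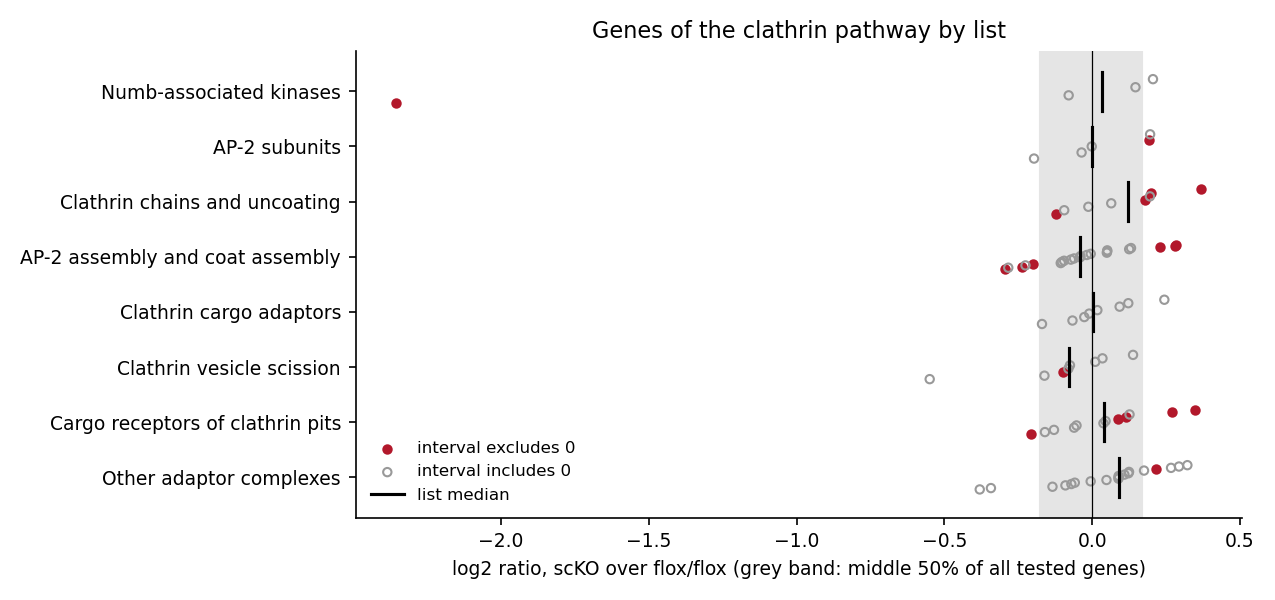
Log2 ratios (scKO over flox/flox) for the tested genes of each list, filled where the 95% counting interval excludes 0 and open where it does not; black lines are list medians and the grey band holds the middle 50% of all tested genes. Aak1 stands alone at −2.36, and all other genes of the 8 lists lie between −0.55 and 0.37.

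Summed marker levels of the cell types of the muscle lay closer to equality than Aak1. The counts of intervals in each list stand beside 12.3% of all tested genes below 0 and 12.8% above, and abundant genes have narrow intervals. Of 12 myofibre markers, 9 intervals lay below 0 and 2 above, with log2 ratios from −0.28 to 0.27. Fibro-adipogenic progenitor markers had a summed level of 433 CPM in scKO and 532 CPM in flox/flox, with 4 of 7 intervals below 0 and a lowest log2 ratio of −0.62. Erythroid markers summed to 112 CPM in scKO and 146 CPM in flox/flox, with all 5 tested intervals below 0. Endothelial markers summed to 277 CPM in scKO and 238 CPM in flox/flox, with 3 of 7 intervals above 0. Satellite cell markers summed to 49.0 CPM in scKO and 47.3 CPM in flox/flox. Most of that sum came from Sdc4, at 21.2 CPM in scKO and 21.4 CPM in flox/flox, and Cdh15, at 16.4 and 14.5 CPM. Pax7, at 2.78 CPM in scKO and 4.75 CPM in flox/flox, was the 1 interval of 7 below 0, and the other 6 included 0. Schwann cell and nerve markers summed to 43.6 CPM in scKO and 45.3 CPM in flox/flox; Sox10 was called lower on 9 counts in scKO and 27 in flox/flox, and the neurofilament genes Nefl and Nefm had at most 1 count. Markers of smooth muscle with pericytes, of macrophages and of adipocytes summed to 474, 39.2 and 165 CPM in scKO. In flox/flox these sums were 469, 34.1 and 176 CPM. Rgs5 made up most of the smooth muscle and pericyte sum, at 321 CPM in scKO and 331 CPM in flox/flox. Pnpla2 made up most of the adipocyte sum, at 135 CPM in scKO and 148 CPM in flox/flox. Its interval was the 1 of 7 below 0, and the median log2 ratio of that list was 0.05. In the smooth muscle and pericyte list and in the macrophage list, 1 interval of 7 each lay above 0 (Tagln and Cd163) and none below. The part of any of these cell types in the Aak1 difference was not tested.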

How the data were processed

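RNA sequencing libraries of gastrocnemius muscle, 1 scKO and 1 flox/flox, were analysed from the deposited tables. The submitters' processing notes name StringTie 1.3.0, HISAT2 2.0.4, CASAVA and the build GRCm38, with no role or order stated. The authors deposited whole-number counts for 34745 genes and, per the file headers, FPKM values for each library. Annotation release, strand setting and treatment of multiply mapped reads are not given in the sources used here. The gene lengths implied by the FPKM differed between libraries by at most 0.0198%, so FPKM adds no measurement to the counts and served only for levels per length.

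Symbols were matched for 34267 identifiers, and gene models came from GENCODE M21 on the same build. TMM library sizes came from edgeR 4.0.16 (R 4.3.3). Log2 ratios used a prior count of 0.5, folds none, and the 95% intervals are exact conditional binomial ones. They were tested on simulated Poisson counts, which hold counting error only. That test therefore could not show how the intervals fare with spread between animals or libraries. No p-value was computed, since 1 library per group leaves no estimate of spread. The alternatives used total counts, DESeq2 1.42.0 size factors, TMM without mitochondrially encoded genes, other count minimums, a prior count of 5 and log2 FPKM with pseudocounts. The members and lists were chosen with earlier results of these data known. Named were all members, Cipc, up to 4 genes per pathway list with the largest absolute ratio, genes within 100 kb of Aak1 and the 5 nearest it in ratio; other list genes and overlapping partners were named after their values were seen. Some list genes are not reported here by name. The 2 gene lengths other than that of the FPKM, the count range around Aak1, the AP-2 median without Ap2a1 and the caveolar genes were added after seeing the data. Python 3.11.15 with numpy 2.4.6, scipy 1.17.1, pandas 2.3.3 and matplotlib 3.10.9 was used.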

Additional observations from a re-analysis of the deposited data

How the results depend on the processing

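Aak1 was lower in scKO under every setting tried. Its log2 ratio stayed between −2.37 and −2.31 over the scalings by total counts, DESeq2 size factors and TMM without mitochondrially encoded genes and with a prior count of 5. On the log2(FPKM + pseudocount) scale, which understates the change of genes with low values, it was −1.97 with a pseudocount of 0.1 and −0.88 with a pseudocount of 1. None of the other 8 members left its counting interval under these settings. Of all tested genes, 189 were called higher and 242 lower. With a summed count of at least 100 these were 58 and 68, with summed counts of 500 to 1000 they were 3 and 17, and without a filter on low counts 369 were called lower; fewer or more genes are tested by construction. Total-count scaling turned the small negative ratios of Ap2a1 (0.0024) and Ap2a2 (0.04) positive, and the interval of Cltb then included 0 (−0.20 to 0.04). Of the 77 pathway genes it put 12 intervals above 0 and 4 below, and DESeq2 size factors put 10 above and 8 below, against 11 and 6. The AP-2 median of −0.0015 ran from −0.01 (DESeq2 size factors) to 0.09 (without Ap2a1, which shares exons with Fuz) over its alternatives. No paired analysis was possible because each genotype has 1 library, and no replicate could be left out. Depth limits the kinases other than Aak1, at 131 to 196 counts per library. Their counts are compatible with any log2 ratio inside the intervals of Bmp2k (−0.14 to 0.56), Gak (−0.38 to 0.22) and Stk16 (−0.21 to 0.50). These intervals cover counting error only and give no detection limit between genotypes.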

Other observations

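Because the caveolin gene Cav1 was among the genes nearest to Aak1 in ratio, the other genes of caveolae were looked up after that value was seen. Cav1 was 4.33-fold lower in scKO (log2 ratio −2.11, −2.40 to −1.84), at 9.05 CPM in scKO and 39.2 CPM in flox/flox. Its partner Cav2 had 313 counts in scKO and 351 in flox/flox (−0.11, −0.34 to 0.11), and the muscle caveolin Cav3 had 602 in scKO and 651 in flox/flox (−0.06, −0.22 to 0.10). The coat genes Cavin1 (−0.06, −0.16 to 0.05), Cavin3 (−0.16, −0.59 to 0.26) and Cavin4 (−0.08, −0.18 to 0.02) and the neck ATPase gene Ehd2 (−0.08, −0.24 to 0.07) had intervals that include 0, and Cavin2 stood at 0.17 (0.03 to 0.32). No replicate bears on either value.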
